A study of Homo sapiens with 44 samples.

Results

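The comparison set 4 MOLM-14 arrays with a hairpin against GSK3A beside 4 MOLM-14 arrays with a hairpin against GSK3B, which are 8 of the 44 arrays of the study, chosen by their labels alone. MOLM-14 is a human acute myeloid leukemia line of monocytic type that carries a KMT2A rearrangement and an activating FLT3 duplication. The GSK3A arrays hold hairpins 5 and 6 (shGSK3A_5 and shGSK3A_6) and the GSK3B arrays hold hairpins 1 and 2 (shGSK3B_1 and shGSK3B_2), with replicates 1 and 2 of each. All of these cells grew in RPMI with serum, were infected with the hairpin virus and took puromycin at 1 µg per mL from 48 h after infection, and RNA was taken 48 h after that. The scrambled hairpin (shControl, 3 MOLM-14 arrays, with the same infection and selection) entered no test here and is given only as a level, and HL-60, THP-1 and U937 carry the same constructs on 8 hairpin arrays each. The labels call the replicates biological and say nothing else of separate cultures, so the p-values measure the spread between these arrays, which may be technical.

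Glycogen synthase kinase 3 exists as an alpha and a beta form, encoded by GSK3A and GSK3B, with closely similar kinase domains. Both forms phosphorylate glycogen synthase, beta-catenin, MYC, D and E cyclins and many other proteins, often marking them for breakdown, and both sit in the complex that destroys beta-catenin when Wnt signals are absent. The comparison asks in what way cells with a hairpin against one form differ in RNA from cells with a hairpin against the other, with no control array between them.

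Values are the deposited intensities of an Affymetrix human expression array on a linear scale. A difference is the mean of log2(intensity + 16) over the GSK3A hairpin arrays minus the mean over the GSK3B hairpin arrays, with the standard error of the limma fit after ±, and a gene passed the test at a Benjamini-Hochberg adjusted p of 0.05 over 12165 genes. Replicate 1 arrays lay in plate columns 3 to 6 and replicate 2 arrays in plate columns 8 to 11, and the plate column set was a block in the fit. Within each set the GSK3B hairpins held the lower-numbered columns and the GSK3A hairpins the higher-numbered ones. Target and column position within a set therefore cannot be told apart. Adding 16 makes the differences of dim genes smaller than the differences in intensity. The median intensity of the 8 arrays ran from 21.6 to 22.2, and the median difference over all genes was 0.00. Of the markers of the labelled cells, FLT3 (491 to 1021 over the 8 arrays), MEIS1 (162 to 318), MYB (1677 to 2423) and CD4 (53.3 to 105) lay above the array medians on every array. SPI1 (16.01 to 27.4), CSF1R (15.1 to 29.98) and CD68 (11.7 to 20.2) lay near or below them. CD33, LYZ and HOXA9 were not read because no probe set was annotated to them alone.

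The GSK3B transcript separated the arrays by label, and the GSK3A transcript did so only slightly. GSK3B was at 27.5 and 29.3 with hairpin 1 and at 22.4 and 40.6 with hairpin 2, replicate 1 first. It was at 174 and 147 with hairpin 5, at 163 and 136 with hairpin 6, and at 165, 170 and 140 on the control arrays. The GSK3B hairpin arrays therefore lay far below both other groups, and the GSK3A hairpin arrays overlapped the controls. GSK3B was 1.96 ± 0.13 higher with the GSK3A hairpins (limma, adjusted p = 0.00352). GSK3A was at 45.4, 46.7, 42.8 and 44.2 on the GSK3A hairpin arrays, at 51.0, 50.4, 47.98 and 53.3 on the GSK3B hairpin arrays and at 46.7, 44.3 and 46.6 on the control arrays. The hairpin groups did not overlap, while the GSK3A hairpin arrays overlapped the controls. The GSK3A difference of −0.13 ± 0.04 did not pass the test (limma, adjusted p = 0.113), and a dimmer GSK3A probe set gave −0.03 (adjusted p = 0.871). A lower GSK3A transcript against the scrambled hairpin was thus not measured, protein was not analysed here, and "GSK3A hairpin arrays" names arrays so labelled.

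**Figure D1:**
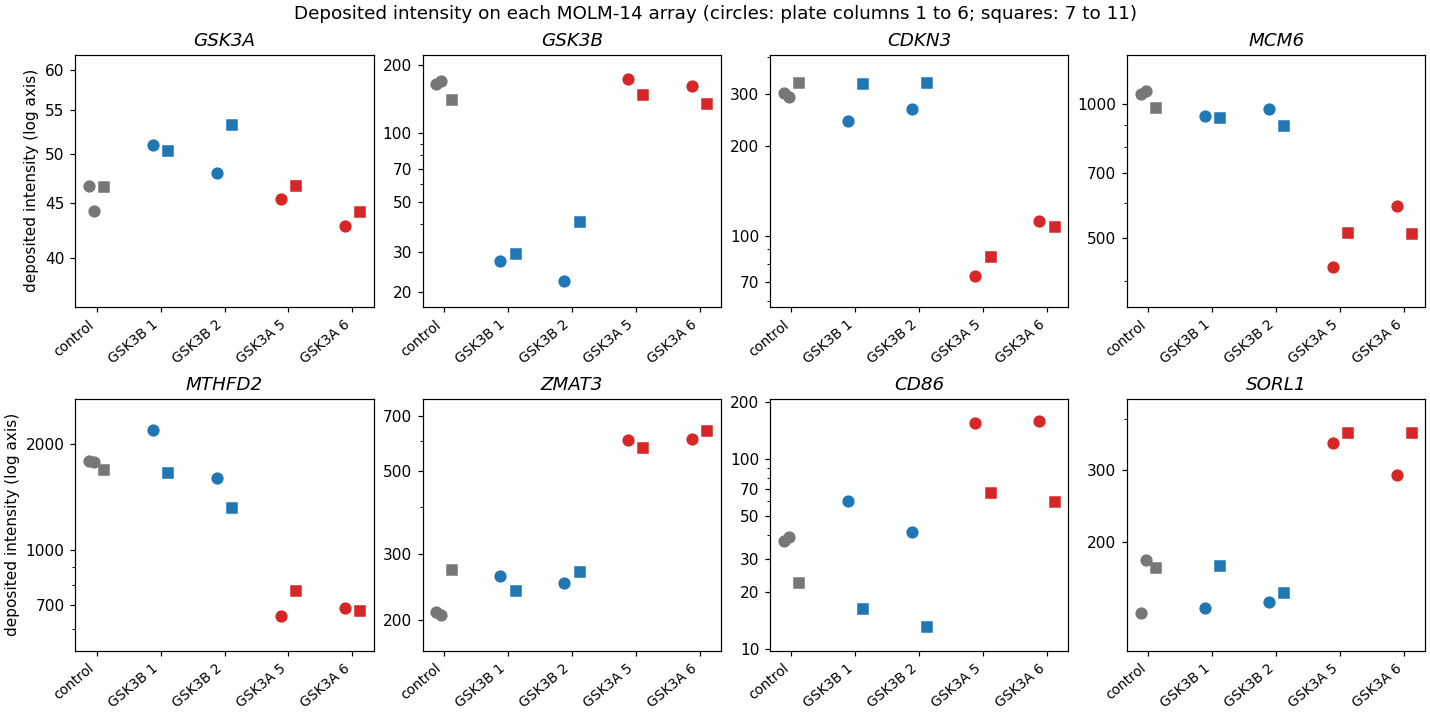
Deposited intensity (log axis) of GSK3A, GSK3B and 6 genes named in the text on each MOLM-14 array, by hairpin, with grey for control, blue for GSK3B hairpins and red for GSK3A hairpins; each point is 1 array, circles are plate columns 1 to 6 and squares plate columns 7 to 11. GSK3B runs from 22.4 to 40.6 on the GSK3B hairpin arrays, CDKN3, MCM6 and MTHFD2 are lowest on the GSK3A hairpin arrays, and the CD86 values shift with the plate columns in every group.

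Across the genome, cells with GSK3A hairpins had less RNA of genes for DNA replication and mitosis than cells with GSK3B hairpins. They had more RNA of a part of the monocyte and lysosome genes. In all, 430 of 12165 genes passed the test (limma, 3.53%), with 186 higher (1.53%) and 244 lower (2.01%) with the GSK3A hairpins, and 2226 had an unadjusted p below 0.05. Over all 8 arrays the groups did not overlap for 479 genes upward (3.94%) and 615 downward (5.06%). In cells measured in bulk, fewer cells in a phase or of a type and less RNA per cell cannot be told apart. At a difference of at least 1.5-fold 57 were higher (0.469%) and 116 lower (0.954%), and at 2-fold 12 (0.0986%) and 19 (0.156%). Each of the 430 genes had one sign in all 4 pairs of a GSK3A and a GSK3B hairpin within both plate column sets, a pattern that 955 of all genes (7.85%) showed upward and 1106 (9.09%) downward. The count rests on few arrays: it was 100 and 146 without replicates 1 and 2 of hairpin 1, 96 and 141 without those of hairpin 2, 154 and 128 without those of hairpin 5, and 192 without replicate 2 of hairpin 6, against 417 without its replicate 1. Without the plate column block it was 172. With GSK3B hairpin 1 or hairpin 2 left out it was 10 or 36, and with GSK3A hairpin 5 or hairpin 6 left out 290 or 905. List counts given below for fits without an array, a hairpin or the block stand beside these totals.

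Set beside the control arrays, which both comparisons share, the genes that passed the test lay away from the controls mostly on the GSK3A hairpin arrays. Over the 244 lower genes the median difference from the controls was −0.53 with GSK3A hairpins and 0.00 with GSK3B hairpins. Over the 186 higher genes it was 0.46 and −0.04. MT2A, a metallothionein that binds metal ions, was one of the genes with the controls in between: it was at 285, 250.3, 358 and 320 on the GSK3A hairpin arrays, at 668, 724, 639 and 636 on the GSK3B hairpin arrays and at 500.2, 504 and 452 on the controls. Its 3 groups did not overlap, and it fell by 1.09 ± 0.11 with GSK3A relative to GSK3B hairpins (limma, adjusted p = 0.00928). CA2, a carbonic anhydrase, was at 48.1, 8.58, 15.3 and 10.8 on the GSK3A hairpin arrays, at 94.5, 52.98, 84.5 and 53.2 on the GSK3B hairpin arrays and at 45.8, 48.5 and 18.8 on the controls. Here the GSK3B hairpin arrays stood above the controls, and 3 of 4 GSK3A hairpin arrays stood below them (difference −1.34 ± 0.21, adjusted p = 0.0278).

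Genes of replication licensing and DNA synthesis formed the list with the most members past the test. Of 52 measured members 21 were lower with the GSK3A hairpins and 0 higher, where 2.01% of all genes were lower, and the list median was −0.68 with 51 of 52 members below 0 (49.8% of all genes were). The members past the test cover the order of events at a replication origin: ORC1 (−0.82) and ORC6 (−0.60) of the origin recognition complex, CDC6 (−0.68) that helps load the helicase, MCM5 (−0.86) and MCM6 (−0.88) of the helicase itself, MCM10 (−1.28) and CDC45 (−1.01) that activate it, and PRIM1 (−0.99), POLE2 (−0.98), POLD1 (−0.71) and RFC3 (−0.68) that prime and extend DNA. CCNE1, the cyclin E that drives entry into S phase, had the smallest adjusted p of the list. It was at 26.1 and 59.5 with hairpin 5, at 37.8 and 54.8 with hairpin 6, at 83.3 and 140 with hairpin 1 and at 81.4 and 171 with hairpin 2. In both plate column sets the GSK3A hairpin arrays were the lower ones, and over all 8 arrays the groups did not overlap (−1.17 ± 0.10, limma, adjusted p = 0.00673). MCM6 was at 432, 513, 589 and 510 on the GSK3A hairpin arrays, at 940, 931, 976 and 892 on the GSK3B hairpin arrays and at 1054, 1073 and 982 on the controls, so that the GSK3B hairpin arrays lay just under the controls and the GSK3A hairpin arrays far below (−0.88 ± 0.09, adjusted p = 0.00928). RFC3, a subunit of the clamp loader, was at 437, 435, 512 and 444 against 788, 694, 807 and 660 (−0.68 ± 0.06, adjusted p = 0.00699). MCM10 was at 38.3, 47.6, 76.5 and 62.6 against 151, 156, 175 and 132, with no overlap (−1.28 ± 0.18, adjusted p = 0.0212). PCNA, the sliding clamp, did not pass the test (−0.35, adjusted p = 0.0799), nor did E2F1 (−0.15, adjusted p = 0.50), a factor of this program chosen here after its value was seen. The count of 21 was 5 and 7 without replicates 1 and 2 of hairpin 1, 3 and 5 without those of hairpin 2, 10 and 4 without those of hairpin 5, and 23 and 14 without those of hairpin 6, and it was 11 without the plate column block.

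Of 60 measured mitosis genes 12 were lower with the GSK3A hairpins and 0 higher, where 2.01% of all genes were lower. The list median was −0.83, and all 60 differences were below 0, as were 49.8% of those of all genes. CDC25A (−1.07), the phosphatase that activates cyclin-dependent kinases, KIF14 (−0.95), a kinesin of cytokinesis, FOXM1 (−0.91), a transcription factor of mitotic genes, and MAD2L1 (−0.84), a spindle checkpoint protein, were among the 12. HMMR, which binds hyaluronan and spindle microtubules, was at 100.5, 90.8, 147 and 145 on the GSK3A hairpin arrays. On the GSK3B hairpin arrays it was at 256, 281, 264 and 280.3, with no overlap (−1.08 ± 0.16, limma, adjusted p = 0.0249). Hairpins 5 and 6 also differed for HMMR, at −1.35 and −0.80 relative to the GSK3B hairpins (limma, adjusted p = 0.0158). ECT2, the exchange factor that starts cytokinesis, was at 44.8, 64.4, 61.1 and 69.3 against 107 to 133 on the GSK3B hairpin arrays, with controls at 121, 121 and 103 (−0.84 ± 0.08, adjusted p = 0.00898). KIF23, its partner at the central spindle, was at 35.4, 56.9, 52.4 and 49.9 against 97.0, 109, 83.6 and 99.4 (−0.85 ± 0.10, adjusted p = 0.013). In each of these the lowest array belonged to a GSK3A hairpin, and the GSK3B hairpin arrays lay around the control values. CDK1, the main kinase of mitosis, chosen here after its values were seen, was −1.56 with hairpin 5 and −0.50 with hairpin 6 relative to the GSK3B hairpins (adjusted p of the target difference, 0.125). The count of 12 was 1 and 2 without replicates 1 and 2 of hairpin 1, 2 and 3 without those of hairpin 2, 4 and 3 without those of hairpin 5, and 27 and 8 without those of hairpin 6, and it was 4 without the plate column block.

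Of the genes with the largest differences downward CCNE1 and MCM10 belong to the replication list, and those that follow belong to no list. CDKN3, a phosphatase of cyclin-dependent kinases, had the largest difference: it was at 73.0 and 84.8 with hairpin 5, at 112 and 107 with hairpin 6, at 244 and 325 with hairpin 1, at 267 and 326 with hairpin 2, and at 302, 295 and 328 on the controls. The GSK3A hairpin arrays did not overlap the others (−1.48 ± 0.13, limma, adjusted p = 0.00803). CENPU of the kinetochore (−1.37 ± 0.16), the exonuclease EXO1 (−1.24 ± 0.16), the replication-linked ubiquitin ligase subunit DTL (−1.19 ± 0.23), FAM111A, a protease that acts at replication forks (−1.15 ± 0.09), the checkpoint ATPase TRIP13 (−1.15 ± 0.15) and the mitotic kinase MELK (−1.13 ± 0.10) followed, with adjusted p between 0.00525 and 0.0468. CENPU, DTL and TRIP13 also differed between hairpins 5 and 6 (limma, adjusted p = 0.0193, 0.0177 and 0.00747). Relative to the GSK3B hairpins CENPU was −1.65 and −1.10 with hairpins 5 and 6, DTL −1.58 and −0.80, and TRIP13 −1.42 and −0.89. FAM111A was at 125, 157, 132 and 196 on the GSK3A hairpin arrays and at 298, 379, 342 and 432 on the GSK3B hairpin arrays. EXOSC9, a subunit of the RNA exosome, had the smallest standard error of the named genes: it was at 165, 173, 173 and 169 against 279, 310.5, 288 and 307, with controls at 261, 277 and 268 (−0.73 ± 0.03, adjusted p = 0.00092).

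Promoters of some lower genes are shown, each with matches to short elements, so they do not stand for all lower genes. Cell cycle genes are classically switched on before S phase through E2F sites and before mitosis through the cell cycle genes homology region (CHR) and CCAAT boxes. The sequences are from RefSeq (GRCh38.p14), 300 bases each from 250 before to 50 after the annotated start, 5′ to 3′ on the strand of the gene, with matches in capitals. CDKN3 lies at chr14:54396757-54397056 on the plus strand, ECT2 at chr3:172750476-172750775 on the plus strand, MCM6 at chr2:135876394-135876693 on the minus strand and EXO1 at chr1:241847954-241848253 on the plus strand.
CDKN3: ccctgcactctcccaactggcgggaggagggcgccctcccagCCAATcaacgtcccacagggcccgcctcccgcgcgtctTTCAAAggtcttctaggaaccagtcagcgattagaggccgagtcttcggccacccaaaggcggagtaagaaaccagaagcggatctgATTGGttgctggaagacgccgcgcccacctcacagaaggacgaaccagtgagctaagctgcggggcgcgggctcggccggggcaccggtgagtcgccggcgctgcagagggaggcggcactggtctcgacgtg
ECT2: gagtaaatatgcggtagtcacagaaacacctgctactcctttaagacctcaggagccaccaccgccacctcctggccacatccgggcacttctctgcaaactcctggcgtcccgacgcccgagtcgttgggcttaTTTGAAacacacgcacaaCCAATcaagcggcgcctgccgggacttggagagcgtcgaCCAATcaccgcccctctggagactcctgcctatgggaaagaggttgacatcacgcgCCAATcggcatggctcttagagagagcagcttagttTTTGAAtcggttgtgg
MCM6: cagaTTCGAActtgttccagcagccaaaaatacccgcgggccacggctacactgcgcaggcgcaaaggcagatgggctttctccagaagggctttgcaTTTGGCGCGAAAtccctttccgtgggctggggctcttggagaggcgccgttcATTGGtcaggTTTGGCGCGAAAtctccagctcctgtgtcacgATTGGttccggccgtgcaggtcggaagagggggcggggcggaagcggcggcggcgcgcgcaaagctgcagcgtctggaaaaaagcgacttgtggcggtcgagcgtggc
EXO1: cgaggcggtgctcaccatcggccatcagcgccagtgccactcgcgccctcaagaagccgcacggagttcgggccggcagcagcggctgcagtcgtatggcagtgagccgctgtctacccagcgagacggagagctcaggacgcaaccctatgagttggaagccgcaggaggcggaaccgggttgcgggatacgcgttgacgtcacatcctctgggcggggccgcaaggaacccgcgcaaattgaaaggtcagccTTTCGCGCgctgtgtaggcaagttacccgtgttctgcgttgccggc
Both strands were searched. The E2F-type letters were TTTCGCGC, TTTGGCGC or TTTCCCGC, the CHR letters TTTGAA or TTCGAA, and the CCAAT box CCAAT. The capitals in CDKN3 are a CHR match (TTCAAA, the reverse complement of TTTGAA) and 2 CCAAT boxes, those in ECT2 2 CHR matches and 3 CCAAT boxes, those in EXO1 1 E2F-type match, and those in MCM6 4 E2F-type matches that overlap in pairs, 1 CHR match and 2 CCAAT boxes. A promoter was found for 9711 of the 12165 genes. E2F-type letters were in 13.2% of the 205 promoters of genes that were lower with GSK3A hairpins and in 6.92% of the 159 of genes that were higher, against 4.15% of those of measured genes and 2.79% of all 27305 promoters. CHR letters were in 45 of those 205, and in 8.81% of the promoters of higher genes, 12.4% of those of measured genes and 16.6% of all. A CCAAT box was in 48.3%, 39.0%, 37.4% and 35.7% in the same order. Of the mitosis list 37 of 51 promoters (72.5%) held CHR letters and 39 (76.5%) a CCAAT box, and of the replication list 20 of 45 (44.4%) held E2F-type letters. Of the members that passed the test, 8 of 10 mitosis promoters (80%) held CHR letters and 5 of 18 replication promoters (27.8%) E2F-type letters. These shares describe letters in a window, and binding was not measured.

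**Figure D2:**
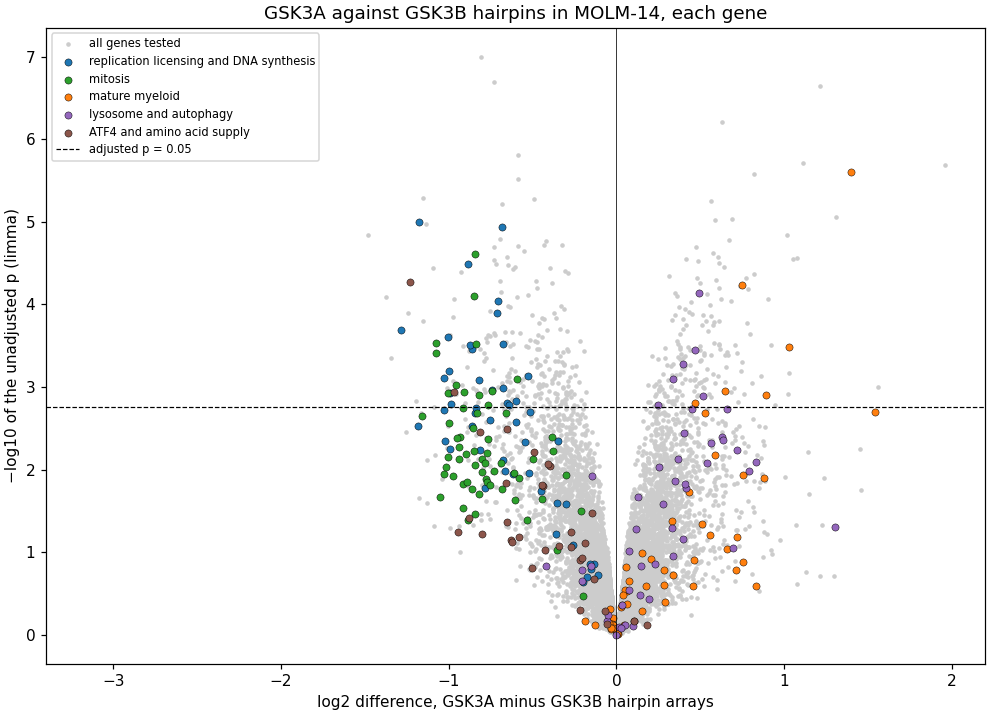
Each gene's log2 difference (GSK3A minus GSK3B hairpin arrays, 4 against 4) against −log10 of its unadjusted limma p, with members of 5 lists in colour and the dashed line at an adjusted p of 0.05. Replication and mitosis members lie to the left, many of them under the line, and the lysosome and mature myeloid members that passed the test lie to the right.

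ZMAT3, a zinc finger RNA-binding protein, was at 603, 574, 607 and 639 on the GSK3A hairpin arrays, at 263, 239, 251 and 268 on the GSK3B hairpin arrays and at 210, 206 and 271 on the controls. No array of the GSK3A hairpins came near the others, and the hairpins of each target lay close together (1.21 ± 0.06, limma, adjusted p = 0.00092). SESN1, a sestrin that restrains mTORC1, was at 476, 658, 483 and 705 against 278, 417, 308 and 461, higher within each plate column set and without overlap over all (0.67 ± 0.06, adjusted p = 0.00827). GADD45A, a stress sensor, was at 349, 334, 369 and 301 against 248, 215, 227 and 196 (0.59 ± 0.05, adjusted p = 0.00673). BAX, which opens the mitochondrial outer membrane in apoptosis, was at 470, 448, 490 and 463 against 275, 337, 295 and 313, and its other probe set gave 0.68 (0.60 ± 0.06, adjusted p = 0.00898). XPC, which recognises damaged bases in nucleotide excision repair, was at 150.4, 143, 171 and 177 against 111, 104, 111 and 122 (0.48 ± 0.08, adjusted p = 0.0345). CDKN1A, the p21 inhibitor of cyclin-dependent kinases, was at 1407, 1290, 1025 and 1031 against 858, 961, 853 and 781. Its groups did not overlap, but 0.45 ± 0.11 did not pass the test (adjusted p = 0.0924).

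Apoptosis regulators gave 3 of 29 members higher and 0 lower, where 1.53% of all genes were higher, with a median of 0.12. Besides BAX these were BCL2L2, a survival protein of the BCL2 family (0.44 ± 0.05, limma, adjusted p = 0.014), and TNFSF10, the death ligand TRAIL (0.65 ± 0.11, adjusted p = 0.0315). TNFSF10 was at 99.6, 64.8, 76.6 and 59.8 on the GSK3A hairpin arrays, at 41.6, 39.2, 44.3 and 43.3 on the GSK3B hairpin arrays and at 58.8, 50.6 and 48.9 on the controls, which lay between the groups. The members that were higher thus include 1 gene known to promote survival and 2 known to promote death.

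Mature myeloid genes, which mark the cells that leukemic blasts fail to become, gave 6 of 53 members higher and 0 lower, where 1.53% of all genes were higher, with a list median of 0.21. Relative to the GSK3B hairpins that median was 0.47 with hairpin 5 and 0.04 with hairpin 6. CD86, a costimulatory ligand of monocytes and dendritic cells, moved with the plate columns as well as with the target. In plate columns 3 to 6 it was at 156 and 160 with the GSK3A hairpins and at 60.3 and 41.2 with the GSK3B hairpins, and in plate columns 8 to 11 at 66.4 and 59.5 against 16.2 and 13.1. The groups were separate within each set and overlapped slightly over all 8 arrays (1.40 ± 0.10 with the block, limma, adjusted p = 0.00361; 0.18 without the block). FUCA1, a lysosomal fucosidase, was at 965, 766, 782 and 852 against 328, 384, 415 and 534, with controls at 303, 310 and 433 (1.03 ± 0.15, adjusted p = 0.0251). RNASE6, a secreted ribonuclease of phagocytes, was at 330, 231, 298 and 276 against 166, 132, 195 and 154 (0.75 ± 0.08, adjusted p = 0.0113). The other three were LY96, the partner of TLR4 (0.89 ± 0.17), LILRB2, an inhibitory receptor (0.65 ± 0.12), and CD4 (0.47 ± 0.09). The classical markers did not pass: CD14, the monocyte receptor for lipopolysaccharide, was dim on all arrays, at 8.13 to 13.3 against 6.90 to 10.3 (0.07 ± 0.06, adjusted p = 0.572), and CSF1R gave 0.21 ± 0.12 (adjusted p = 0.434). ITGAM, the integrin CD11b, was at 410 and 280 with hairpin 5 but at 136 and 140 with hairpin 6, against 115, 146, 199 and 170 (0.45 ± 0.37, adjusted p = 0.616). The count of 6 was 2 without any 1 of hairpin 1's arrays, hairpin 2 replicate 1, hairpin 5's arrays or hairpin 6 replicate 2, 3 without hairpin 2 replicate 2 and 5 without hairpin 6 replicate 1. Without the plate column block it was 2.

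The primary granule list, a program of earlier myeloid cells, had 0 of 14 members past the test in either direction (median 0.04). MPO, the myeloperoxidase of primary granules, was at 33.6, 33.5, 41.8 and 30.6 on the GSK3A hairpin arrays and at 31.4, 51.8, 19.7 and 23.5 on the GSK3B hairpin arrays, while the controls stood at 118, 123 and 77.8. Both hairpin groups lay below every control array, and the difference between them was 0.13 ± 0.20 (limma, adjusted p = 0.826). Of the stem and progenitor list 0 of 24 members passed (median 0.02), among them MEIS1, a homeobox factor of leukemias with KMT2A rearrangement (−0.14 ± 0.10, adjusted p = 0.555), KIT (−0.09 ± 0.14) and FLT3 (0.12 ± 0.15). KIT was dim, at 14.1 to 25.4 on the GSK3A hairpin arrays and 15.0 to 31.4 on the GSK3B hairpin arrays, around the array medians.

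**Figure D3:**
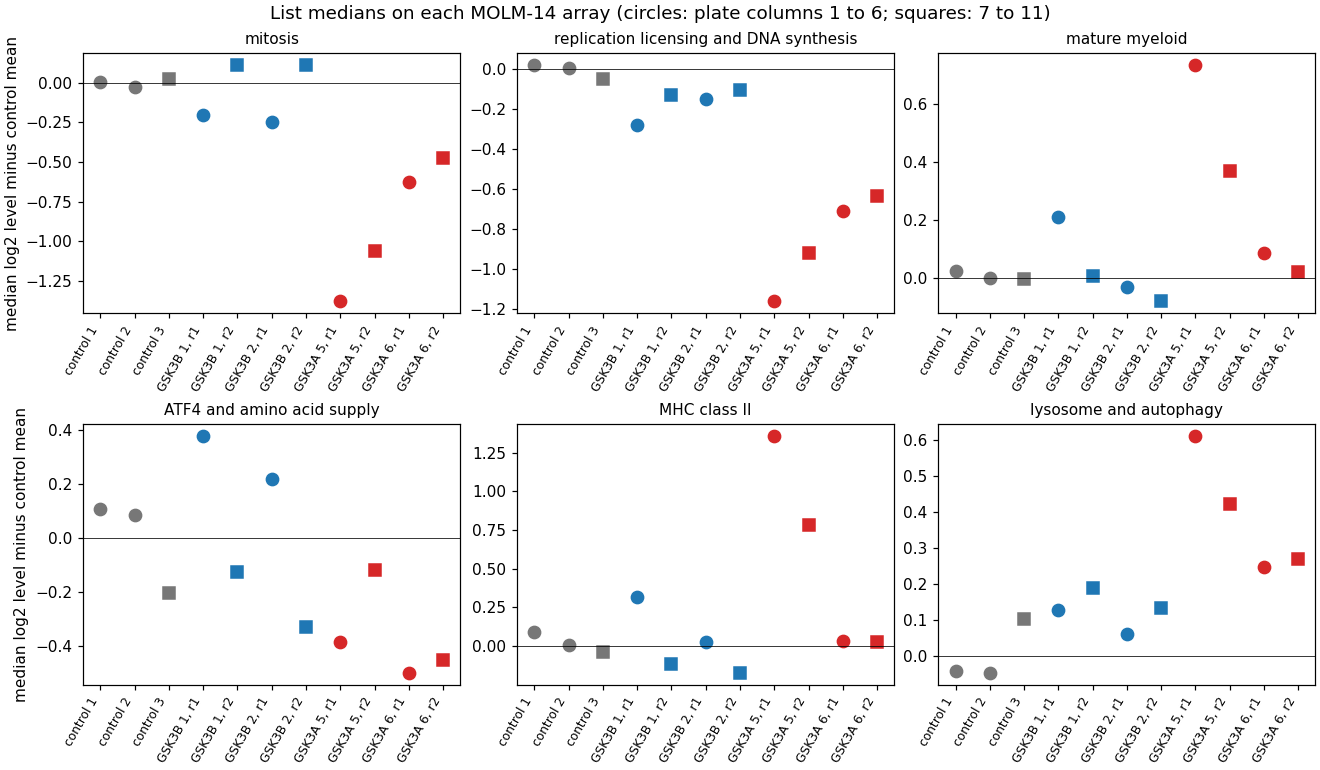
Median over the members of 6 lists of each array's log2 level minus the mean of the control arrays, for the 11 MOLM-14 arrays, with grey for control, blue for GSK3B hairpins and red for GSK3A hairpins; circles are plate columns 1 to 6 and squares plate columns 7 to 11. Mitosis runs from −1.38 to −0.47 on the GSK3A hairpin arrays and from −0.25 to 0.11 on the GSK3B hairpin arrays, and MHC class II lies at 1.36 and 0.78 with hairpin 5 but at 0.03 and 0.02 with hairpin 6.

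Antigen presentation genes differed between the hairpins of GSK3A. The MHC class II list had a median of 0.53 between the targets. Of its 15 members CD86 passed the test, where 1.53% of all genes were higher. Relative to the GSK3B hairpins its median was 1.00 with hairpin 5 and −0.00 with hairpin 6, and 6 members were higher with hairpin 5 than with hairpin 6 (limma), where 4.86% of all genes were. HLA-DRA, the alpha chain of HLA-DR, chosen after its values were seen, was 2.46 above the GSK3B hairpins with hairpin 5 and −0.31 with hairpin 6, and its target difference of 1.08 ± 0.84 did not pass the test (adjusted p = 0.597).

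Lysosome and autophagy genes were higher in part. Of 48 measured members 6 were higher and 0 lower, where 1.53% of all genes were higher. The median was 0.31, and 40 members were above 0, as were 6111 of all 12165 genes. Those 6 were MANBA, a beta-mannosidase (0.49 ± 0.06), ATP6V0A1 (0.47 ± 0.07) and ATP6V0E1 (0.25 ± 0.05) of the proton pump that acidifies lysosomes, the peptidase TPP1 (0.40 ± 0.06), the tetraspanin CD63 (0.34 ± 0.06) and TFE3, a transcription factor of lysosome genes (0.52 ± 0.10). TPP1 was at 1262, 1125, 1103 and 1026 on the GSK3A hairpin arrays, at 833, 869, 819 and 893 on the GSK3B hairpin arrays and at 700, 679 and 708 on the controls, so on this probe set the GSK3A group stood highest, and on 2 of its 3 other probe sets the mean of the GSK3B group lay below that of the controls (limma, adjusted p = 0.0304). MANBA was at 176, 198, 152 and 212 against 118, 140, 116 and 134, with controls at 97.0, 92.7 and 119 (adjusted p = 0.0127). The list median was 0.42 with hairpin 5 and 0.15 with hairpin 6. The letters TCACGTGA, the core of an element bound by TFE3 and its relatives, were in 6 of 34 promoters of the list (17.6%), against 1.70% of those of measured genes, and in 0 of the 4 promoters found for the 6 higher members. The count of 6 was 1 without any 1 array of hairpins 1 and 2 or hairpin 6 replicate 2, 2 without either array of hairpin 5 and 7 without hairpin 6 replicate 1, and it was 3 without the plate column block.

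Genes for serine and one-carbon supply were lower at 2 steps. The ATF4 and amino acid supply list had 2 of 32 members lower and 0 higher, a median of −0.43 and 30 members below 0, and the one-carbon and serine list, which shares both genes, 2 of 17 and a median of −0.23. Of all genes 2.01% were lower and 49.8% were below 0. MTHFD2, the mitochondrial folate enzyme, was at 653, 768, 687 and 676 on the GSK3A hairpin arrays, at 2187, 1650, 1601 and 1314 on the GSK3B hairpin arrays and at 1784, 1778 and 1685 on the controls. Its GSK3A hairpin arrays lay in a narrow band below every other array (−1.23 ± 0.14, limma, adjusted p = 0.0109). PHGDH, the first enzyme of serine synthesis, was at 123, 134, 133 and 136 against 407, 264, 295 and 188, with controls at 355, 339 and 235 (−0.97 ± 0.18, adjusted p = 0.0416). PSAT1 (−0.94, adjusted p = 0.293) and ASNS (−0.80, adjusted p = 0.304), targets of ATF4 in the same supply, were chosen after their values were seen and did not pass. The list median depended on the plate columns: it was −0.67 in plate columns 3 to 6 and −0.06 in plate columns 8 to 11. The letters TGATGCAA of the element that ATF4 binds were in 4 of 29 promoters of the list (13.8%), against 0.68% of those of measured genes, and in 0 of the 205 promoters of lower genes. The count of 2 was 1 without any 1 array except hairpin 2 replicate 2.

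**Figure D4:**
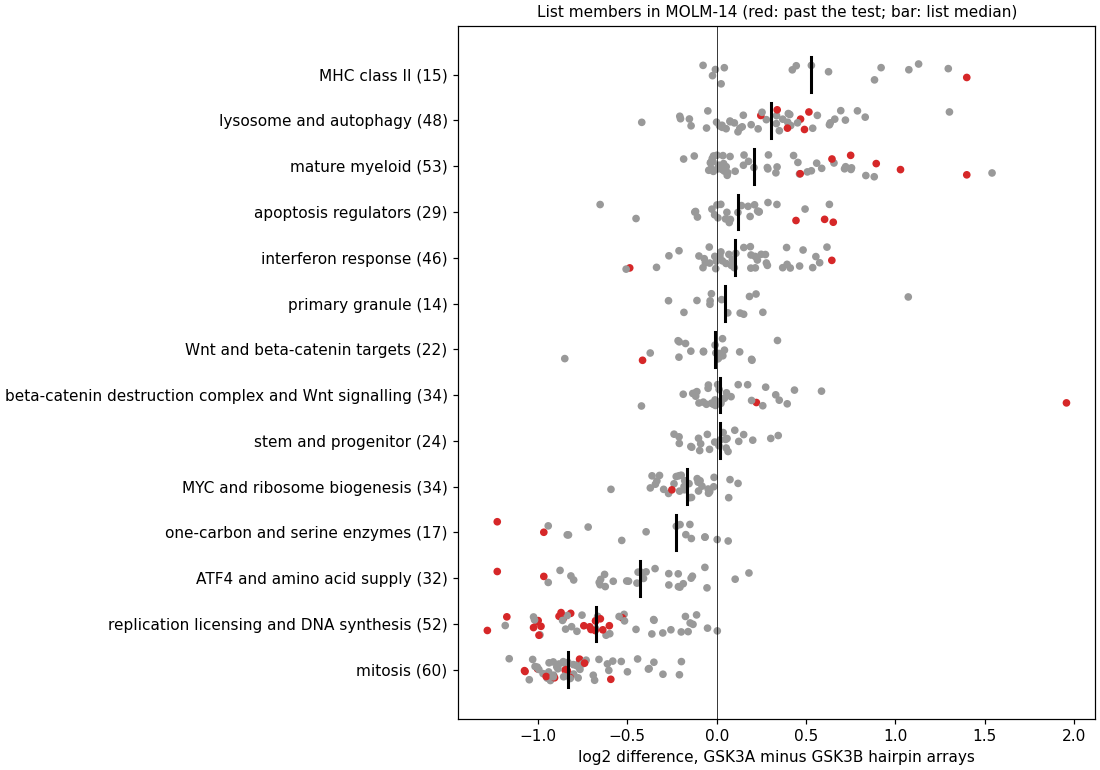
Log2 difference (GSK3A minus GSK3B hairpin arrays) of each measured member of 14 lists in MOLM-14, with the number measured after each name; red points passed the test and the bar is the list median. All 60 mitosis members and 51 of 52 replication members lie below 0, and the Wnt lists centre near 0 apart from GSK3B itself at 1.96.

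Wnt genes are the best known outputs downstream of GSK3. Of 34 measured genes of the beta-catenin destruction complex and Wnt signalling 2 were higher, GSK3B itself and FBXW11, a ubiquitin ligase subunit that recognises phosphorylated beta-catenin, and the median was 0.02, where 1.53% of all genes were higher. FBXW11 was at 138, 125, 150 and 120 against 123, 109.5, 120 and 99.1, with the groups separate within each plate column set only (0.22 ± 0.04, limma, adjusted p = 0.049), and its dimmer probe set gave −0.12 and did not pass. CTNNB1, which encodes beta-catenin, gave 0.17 ± 0.10 (adjusted p = 0.435). Of 22 Wnt targets 1 was lower, where 2.01% of all genes were. This was CCND2, the cyclin D2 gene, which was at 1373, 1364, 1355 and 1391 against 2005, 1675, 2171 and 1596, with controls at 1626, 1612 and 1512 (−0.42 ± 0.08, adjusted p = 0.0449). On this probe set the GSK3A hairpin arrays lay in a narrow band below all others. Dimmer probe sets of CCND2 gave −0.31 and −0.45 and did not pass (limma, adjusted p = 0.280 and 0.241). MYC (−0.21 ± 0.09, adjusted p = 0.266), CCND1 (−0.07 ± 0.18, at 12.5 to 41.4 against 16.5 to 35.6) and LEF1 (−0.01 ± 0.04, at 6.64 to 8.30 against 6.97 to 8.06) did not pass. CCND1 and LEF1 were dim, and AXIN2 and TCF7 had no probe set annotated to them alone. Glycogen metabolism, the pathway that named the kinase, had 1 of 20 members lower, PPP1R3D, which brings protein phosphatase 1 to glycogen (−0.31 ± 0.05, adjusted p = 0.0304).

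Among the genes with the largest differences upward, no list held the majority. CYFIP2 of the WAVE actin complex was at 292 and 360 with hairpin 5, at 127 and 200.2 with hairpin 6, at 62.9, 97.3, 54.5 and 68.0 on the GSK3B hairpin arrays and at 85.2, 72.1 and 140 on the controls (1.56 ± 0.28, limma, adjusted p = 0.0399). Its GSK3A hairpins also differed from each other, by 0.95 (adjusted p = 0.0091), and both lay above the GSK3B hairpins. A dimmer probe set of CYFIP2 gave 0.85 and did not pass (limma, adjusted p = 0.179). SORL1, a sorting receptor, was at 349, 370, 291 and 369 against 138, 175, 142 and 150, with controls at 134, 180 and 172 (1.11 ± 0.07, adjusted p = 0.00352). ARHGEF3, an exchange factor for RhoA, gave 1.08 ± 0.11, KCTD12, an auxiliary subunit of GABA-B receptors, 1.05 ± 0.10, and BNIP3L, a receptor for mitophagy and the only hypoxia list member past the test of 30, 1.03 ± 0.17. KCTD12 was at 196, 147, 212 and 147 against 88.0, 58.5, 82.6 and 85.8 while the controls stood at 84.9 to 127. It lay above the controls in the GSK3A group, and below them or at the low end of their range in the GSK3B group. Histone genes H2AC6 (1.31 ± 0.11), H2BC5 (1.02 ± 0.09) and H2BC12 (1.02 ± 0.19) were also higher. They are named for the size of their difference, and histone genes formed no list, so no share of them is given. H2BC12 differed between hairpins 5 and 6, at 1.35 and 0.70 relative to the GSK3B hairpins (limma, adjusted p = 0.0072). BNIP3L differed between hairpins 1 and 2, by 0.60 (limma, adjusted p = 0.0346). Histone genes have near-identical copies, so which copy gave the signal is uncertain, and a second probe set of H2BC5 gave 0.48 and did not pass.

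The counts of the remaining lists stand beside 1.53% of all genes higher and 2.01% lower. The MYC and ribosome biogenesis list had 1 of 34 members lower (2.94%), with a median of −0.17. That member was DKC1 of the telomerase and snoRNA complex (−0.25 ± 0.05, limma, adjusted p = 0.0486). The D cyclins, kinases and inhibitors list had 1 of 18 lower, CCND2. Interferon response genes gave TRIM22 higher (0.64 ± 0.11) and USP18 lower (−0.49 ± 0.07) of 46 (2.17% each way). Oxidative phosphorylation gave UQCRC2 (0.37 ± 0.05) and COX7C (0.30 ± 0.06) of 36, and cholesterol and fatty acid synthesis LSS (0.36 ± 0.07) of 23. Of the unfolded protein response (19 members), NRF2 (19) and NF-kB (29) lists 0 passed in this limma fit. Markers of other cells were flat: 0 of 15 erythroid, 0 of 16 megakaryocyte, 0 of 20 T and NK and 0 of 12 B cell markers passed, with medians of −0.01 to 0.00, and 12, 12, 18 and 11 of them never rose above the median of their array. Of 20 epithelial and stromal markers ACTA2, smooth muscle actin, was higher (0.76 ± 0.14, adjusted p = 0.0419), and 13 were never above the array median. The summed intensity of those 20 ran from 4245 to 5760 on the GSK3A hairpin arrays and from 4115 to 5164 on the GSK3B hairpin arrays.

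Hairpins against the same gene also differed. Between hairpins 5 and 6 of GSK3A 1152 genes passed the test (limma, 9.47%), 591 higher (4.86%) and 561 lower (4.61%) with hairpin 5, and between hairpins 1 and 2 of GSK3B 322 (2.65%), 185 higher (1.52%) and 137 lower (1.13%) with hairpin 1. These tests rest on 2 arrays per hairpin, and the counts fell to 240, 572, 264 and 388 without hairpin 5 replicate 1 or 2 or hairpin 6 replicate 1 or 2, and to 2, 1, 3 and 3 without hairpin 1 replicate 1 or 2 or hairpin 2 replicate 1 or 2. Of the 60 mitosis genes 42 were lower with hairpin 5 than with hairpin 6, and of the 52 replication genes 21. The mitosis median relative to the GSK3B hairpins was −1.16 with hairpin 5 and −0.47 with hairpin 6, and the replication median −0.82 and −0.47. With hairpin 5 left out, 17 mitosis, 15 replication and 2 mature myeloid genes passed in the same directions as before, and with hairpin 6 left out 51, 39 and 12. With GSK3B hairpin 1 left out these counts were 0, 1 and 1, and with hairpin 2 left out 0, 0 and 1.

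The difference between the targets was larger in MOLM-14 than in the other lines for many of these genes. In a fit of the 32 hairpin arrays of all lines, 529 genes (limma, 4.35%) had a MOLM-14 difference unlike the mean of the HL-60, THP-1 and U937 differences, 170 upward (1.40%) and 359 downward (2.95%). Of the 244 genes lower in MOLM-14 140 passed that test downward and 0 upward, and of the 186 higher ones 80 upward and 0 downward. Over the 244 lower genes the median difference was −0.55 in MOLM-14, −0.15 in HL-60, −0.06 in THP-1 and −0.16 in U937. MOLM-14 values enter both tests and chose these genes, so those counts are a description. The count of 529 ran from 382 to 671 with 1 MOLM-14 array left out.

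In the lists, 51 of 60 mitosis genes and 35 of 52 replication genes were lower in MOLM-14 than in the mean of the other lines, and 0 higher. Of all genes 2.95% were lower and 1.40% higher by that test. The mitosis median was 0.16 in HL-60, 0.10 in THP-1 and −0.08 in U937. KIF23 was −0.85 in MOLM-14 and 0.07, 0.28 and −0.01 in HL-60, THP-1 and U937, a difference of −0.96 ± 0.12 (limma, adjusted p = 1.0e-04). ZMAT3 was 0.04, −0.05 and 0.05 in HL-60, THP-1 and U937, so that its difference from them was 1.20 ± 0.10 (adjusted p = 4.7e-07), and FAT1, a large cadherin that belongs to no list, was 0.69 in MOLM-14 and −0.05, 0.07 and 0.02 elsewhere (0.68 ± 0.06, adjusted p = 2.5e-06). PHGDH was 0.31, 0.18 and 0.07 in the other lines against −0.97 in MOLM-14 (−1.15 ± 0.16, adjusted p = 0.00022). For other genes MOLM-14 did not pass the test against the mean of the other lines, which does not show that the lines agree. MTHFD2 was −1.07, −0.60 and −0.70 in HL-60, THP-1 and U937 (difference −0.44 ± 0.17, adjusted p = 0.17), RNASE6 was 0.61, 0.76 and 1.33 (−0.15 ± 0.26, adjusted p = 0.88), and CD86 was 1.78, 0.09 and 0.96 (0.46 ± 0.22, adjusted p = 0.31). The mature myeloid list, with a median of 0.24 in HL-60, 0.09 in THP-1 and 0.15 in U937, had 2 of 53 members higher in MOLM-14 by this test.

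**Figure D5:**
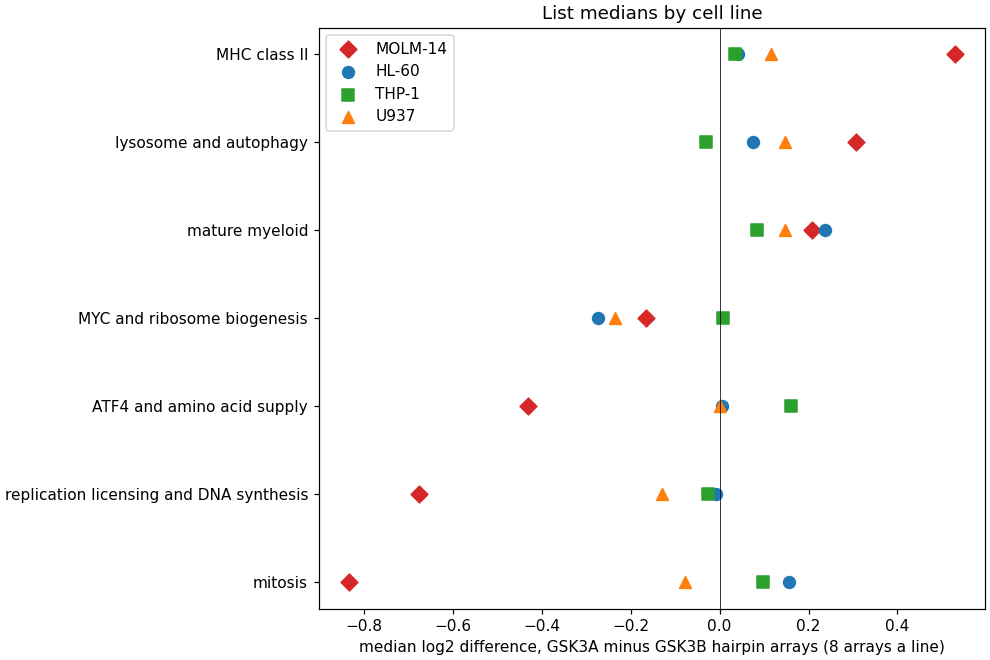
Median log2 difference (GSK3A minus GSK3B hairpin arrays, 8 arrays a line) of 7 lists in each cell line. The mitosis median is −0.83 in MOLM-14 against 0.16, 0.10 and −0.08 in HL-60, THP-1 and U937, and the mature myeloid median is 0.21 against 0.24, 0.09 and 0.15.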

How the data were processed

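RNA on 44 Affymetrix human expression arrays was summarised and normalized by the authors, and the deposited table holds linear intensity per probe set. The submitters' processing notes name RMA and MAS5; which of them made the table, with which version, is not given in the sources used here. Of 22277 probe sets 19724 name 1 gene, 568 several and 1923 none, from GEO's platform annotation, and symbols were updated through Entrez identifiers. Log2(intensity + 16) was quantile-normalized over all arrays, and the probe set with the highest mean was kept for each of 12165 genes.

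The 8 hairpin arrays were fitted with limma 3.58.1 (R 4.3.3) with target and plate column set (5 residual degrees of freedom, two-sided, Benjamini-Hochberg over all genes, threshold 0.05). The hairpin was left out of that model, so the spread between hairpins of a target is in the residual. The arrays of 1 hairpin thus count as independent, though their consensus correlation was 0.30. With the hairpin as a random block 150 genes passed in place of 430. A fit with 4 hairpin means tested hairpins of 1 target against each other (3 residual degrees of freedom), and a fit of 32 hairpin arrays tested MOLM-14 against the other lines (20 residual degrees of freedom). The replicate numbers pair the samples by plate columns, per the labels, and the deviations of same-numbered arrays correlated at 0.561 to 0.753 over all 6 pairs of hairpins, with 627 genes differing between the column sets. The scripts were tested on simulated data. Precision is limited by how few arrays each group has.

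Named genes were GSK3A and GSK3B, the 12 with the largest difference each way among those past the test with 1 sign in all hairpin pairs, up to 3 of each list and direction with the smallest adjusted p, the 5 each way with the smallest adjusted p against the other lines, and a fixed set of Wnt, myeloid and cell cycle genes. Any other list member named was chosen after its values were seen. The members and the 28 lists (749 of 850 genes measured) were chosen with earlier results of these data known. Lists were counted and not tested, and 1 of them is not reported here. Alternatives were other normalizations, pseudocounts of 1 and 64, a minimum intensity of 32, other uses of probe sets, other models, and fits without a hairpin or an array.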

Additional observations from a re-analysis of the deposited data

Results flagged for a closer look

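In 3 of 134 groups of 4 arrays checked over the 67 named genes, 1 array stood far from the other 3. Chance gives about 1 in 20. The gaps were taken on the quantile-normalized log2 levels, while the intensities shown are as deposited. ATP6V0A1 was at 119 with hairpin 6 in replicate 1 and at 145 to 148 on the other GSK3A hairpin arrays, a gap of 0.932 of the range. KCTD12 was at 58.5 with hairpin 1 in replicate 2 and at 82.6 to 88.0 on the other GSK3B hairpin arrays (0.868). MT2A was at 724 on that same array and at 636 to 668 on the others (0.838).

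In 37 named genes the difference between the targets in MOLM-14 departed from the mean of the other lines (limma, adjusted p under 0.05). Many were chosen for that test or for their MOLM-14 difference. Downward, the departure on the log2 scale was −1.27 for CA2, −1.22 for CENPU, −1.15 for CDKN3 and PHGDH, −1.11 for DTL, −1.10 for EXO1, −1.01 for HMMR, −0.96 for KIF23 and MCM10, −0.94 for MELK and −0.89 for FAM111A. It was −0.85 for ECT2, −0.83 for CCNE1, −0.77 for TRIP13, −0.75 for MCM6, −0.62 for RFC3, −0.61 for EXOSC9 and −0.51 for USP18. Of these 18 genes 7 belong to the replication or mitosis lists: HMMR, KIF23, MCM10, ECT2, CCNE1, MCM6 and RFC3.

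Upward it was 1.51 for CYFIP2, 1.36 for H2AC6, 1.20 for ZMAT3 and H2BC5, 1.12 for H2BC12, 0.79 for ARHGEF3, 0.75 for ACTA2, 0.72 for SCHIP1, 0.68 for FAT1 and FUCA1, and 0.67 for GADD45A. It was 0.66 for SESN1, 0.64 for RNFT2, 0.53 for SORL1 and XPC, 0.49 for KCTD12, 0.44 for BAX, 0.37 for MANBA and 0.30 for UQCRC2. The 3 histone genes differed the other way in THP-1, at −0.47, −0.53 and −0.61 for H2AC6, H2BC12 and H2BC5, with no test of that line alone.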

How the results depend on the processing

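The count of 430 genes was 172 with no replicate block (the fit that ignores the pairing by plate columns), 150 with the hairpin as a random block, 1897 with hairpin means and the replicate block, and 3415 with all 44 arrays. It was 0 within replicate 1 arrays and 0 within replicate 2 arrays (limma, 1250 and 1196 genes with an unadjusted p below 0.05), where each fit has 4 arrays. It was 290 and 905 with GSK3A hairpin 5 or 6 left out, and 10 and 36 with GSK3B hairpin 1 or 2 left out. With 1 array left out it ran from 96 to 417. Other normalizations, pseudocounts, filters and uses of probe sets kept it within 1.5 times. The 529 genes that set MOLM-14 apart became 224 with no replicate block, 1786 with hairpin means and 174 against U937 alone. The 1152 genes between hairpins 5 and 6 became 163 with no replicate block, 2620 with all 44 arrays and 240 to 572 with 1 array left out. The 322 between hairpins 1 and 2 became 0 (1074 unadjusted), 1615 and 1 to 3, and 535 at a mean intensity of at least 32. The cause of these shifts was not tested.

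The 54 named genes past the test had the same sign in every setting that gave 1 value per gene. Of them 32 kept their call with no replicate block, 34 with the random block and 26 to 44 with 1 array left out. With hairpin 5 or 6 left out 36 and 43 kept it, and with hairpin 1 or 2 left out 4 and 7. Other probe sets of FBXW11 (−0.12), RNFT2 (−0.044) and ACTA2 (−0.027) had the opposite sign, and none of them passed the test. In the settings with 1 value per gene, signs turned only for genes that did not pass in the fit of the report. FLT3 was −0.047 on replicate 1 arrays, −0.068 without hairpin 5 and −0.0040 without hairpin 2. On replicate 2 arrays CCND1 was 0.028, KIT 0.049, LEF1 0.027 and MPO −0.12. Without hairpin 5, ITGAM was −0.14, KIT 0.059 and LEF1 0.0033. CCND1 was 0.15 without hairpin 6, and without hairpin 2 CCND1 was 0.084, KIT 0.067 and MPO −0.17. With 1 array left out, CCND1 ran from −0.24 to 0.047, FLT3 from −0.0096 to 0.21, KIT from −0.21 to 0.013, LEF1 from −0.028 to 0.011 and MPO from −0.0015 to 0.34.

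The list medians kept their direction for mitosis and replication in all settings. The arrays are few, with 2 per hairpin, 2 hairpins per target and 5 residual degrees of freedom. Of 430 genes 193 have further probe sets, and 44 of those 315 probe sets had the opposite sign, none of them past the test. Only 69 of the 315 passed the test with the same sign. Dim genes near the array median are measured poorly, and the authors' processing before deposit is known only by name.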

Other observations

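Members of further lists differed between hairpins 5 and 6 of GSK3A (limma, where 4.86% of all genes were higher and 4.61% lower with hairpin 5). That fit rests on 2 arrays per hairpin and is of another form than the fit of the targets, so its counts are not set against that fit. Its total of 1152 genes was 240 to 572 with 1 array left out and 163 with no replicate block, and the list counts were not computed in those settings. Of 19 unfolded protein response genes 9 were higher with hairpin 5 and 0 lower. Of 46 interferon response genes 8 were higher and 0 lower, of 53 mature myeloid genes 15 and 0, of 48 lysosome and autophagy genes 10 and 2, and of 14 primary granule genes 4 and 0. Of 23 cholesterol and fatty acid synthesis genes 4 were higher and 0 lower, and their median difference from the GSK3B hairpins was 0.35 with hairpin 5 and 0.02 with hairpin 6. Of 24 stem and progenitor genes 1 was higher and 1 lower.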
